A study of Mus musculus with 11 samples.

Results

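The Trim12, Trim30 and Trim34 genes described here are 7 members of a gene cluster on mouse chromosome 7, Trim12a, Trim12c, Trim30a, Trim30b, Trim30c, Trim30d and Trim34a. They were taken by symbol, and all 7 were among the 25677 genes listed in the deposited tables. The cluster was picked because Trim12a was nearly absent from MRL/lpr kidneys, so it was chosen by the Trim12a counts, and values of the members against the control kidneys are given as a description, with no p. Counts of members past a threshold in those comparisons are shown only beside the share of all genes. RNA sequencing of whole kidney was compared between 3 control mice (Ctr, C57BL/6J, written as C57B6 in the labels), 4 MRL/lpr mice without treatment (Lpr) and another 4 of that strain under DNase I (DNase). All mice were female and were killed at 21 weeks of age, and the treated mice had received an intraperitoneal injection of DNase I every day from week 17. MRL/lpr is an inbred strain with a mutation of the death receptor gene Fas whose kidneys are damaged in a disease resembling lupus. DNase I cuts extracellular DNA such as that of neutrophil extracellular traps. All 8 MRL/lpr mice share this strain background, and the controls carry another background and are healthy, so strain and disease cannot be told apart in any comparison with Ctr.

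Trim proteins carry a RING finger, which marks proteins with ubiquitin, a B-box and a coiled coil, and many members of this cluster end in a B30.2 domain that binds the target. TRIM5 of primates is known for binding the capsid of incoming retroviruses, and the rodent cluster holds several copies related to it. Trim30a is induced by interferon and Toll-like receptor ligands and has been described to restrain NF-kB signalling by degrading TAB2 and TAB3. Many genes of this kind are switched on through interferon-stimulated response elements (ISREs).

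On the GRCm38 (mm10) assembly with GENCODE M21 gene models, the members lie between the start of Trim34a at chr7:104244457-104262234 on the plus strand and the end of Trim30d at chr7:104470014-104507849 on the minus strand. Trim12a lies at chr7:104299894-104315466, Trim12c at chr7:104338754-104353362, Trim30b at chr7:104355382-104369884, Trim30c at chr7:104382065-104400837 and Trim30a at chr7:104409025-104465193, all on the minus strand. Trim5 at chr7:104263386-104288094 on the minus strand and Trim34b at chr7:104329471-104336909 on the plus strand lie between members, and Trim6 lies just outside. These 3 genes are no members but are given beside them as the neighbours that the tables list and the filter on low counts kept.

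The promoters of the members were searched for an ISRE-like motif because of the known link of the family with interferon. The motif was GAAANNGAAA, or TTTCNNTTTC on the other strand, where N is any base, and overlapping matches were allowed. The promoters were those of RefSeq on GRCm38.p6, and all 7 members were matched by symbol. The motif was found in the promoters of 5 of the 7 members, Trim12a, Trim12c, Trim30a, Trim30d and Trim34a, while 3.44% of all 32851 promoters in the table held it. By gene, 3.86% of the listed genes with a promoter in the table held it, against 13 of 28 genes of the interferon-induced list defined below. The stretches below show the motif in capitals with the 10 bases on each side, 5′ to 3′ on the strand of the gene.
Trim12a: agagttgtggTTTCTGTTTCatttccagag
Trim12c: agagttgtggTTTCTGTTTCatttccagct
Trim5: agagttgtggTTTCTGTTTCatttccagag
Trim30a: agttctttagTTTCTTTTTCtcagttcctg
Trim30d: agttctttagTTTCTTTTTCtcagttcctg
Trim34a: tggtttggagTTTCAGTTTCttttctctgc
These stretches lie at chr7:104315466-104315495 for Trim12a, chr7:104353359-104353388 for Trim12c, chr7:104288136-104288165 for Trim5, chr7:104465210-104465239 for Trim30a, chr7:104507871-104507900 for Trim30d and chr7:104244457-104244486 for Trim34a. Counted from the RefSeq start site, the first base of the motif was at -29 for Trim12c, -36 for Trim30a and -41 for Trim30d, and at 11 for Trim12a and Trim34a. The RefSeq start sites are not always those of the GENCODE models above. For Trim12a the motif lies upstream of the GENCODE 5′ end at chr7:104315466. The same 30 bases stood in Trim12a and Trim5, and the same 30 bases in Trim30a and Trim30d. A second Trim30a promoter of the table held the motif as well, 3 bases after its start site.

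The motif was not in these windows for Trim30b and Trim30c, nor for the neighbours Trim34b and Trim6. The closest stretch of the Trim30c promoter, at chr7:104400896-104400925, is shown because it differs from the Trim30a stretch at few bases, one of them inside the motif.
Trim30c: agttctgtggttcctttttctcagttccac
The differences from Trim30a, counted from 1 at the 5′ end of the stretch with the Trim30a base first, were T7G, A9G, T13C, T29A and G30C. A match is a description of the reference sequence and not a binding site, and a window without a match says only that these letters are not in it. The reference sequence is that of C57BL/6J, and the sequence of MRL/lpr mice was not examined.

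The 11 libraries held between 33469858 and 38460873 counts. Kidney markers were present in every library, with 0 of 18 at a count of 0, and their summed level was 18530 to 19970 CPM (counts scaled to a common library size) in Ctr, 11730 to 17180 in Lpr and 15060 to 19310 in DNase. The summed level of 20 leukocyte markers was 130 to 209 CPM in Ctr, 1350 to 2227 in Lpr and 929 to 2028 in DNase. In whole kidney, fewer cells of a type and less RNA per cell cannot be told apart. The library Lpr 3 stood apart, since its log2 counts relative to the other libraries fell by 0.393 per doubling of gene length. In the other 10 libraries the slope ranged from -0.0433 to 0.0775. Log2 fold changes of Trim12c, Trim30a, Trim30d and Trim34a in comparisons with Lpr are given with and without Lpr 3 below.

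Trim12a was present in control kidneys and close to absent in every MRL/lpr kidney. It had 246, 205 and 332 counts in Ctr, 0, 2, 0 and 2 in Lpr and 0, 0, 1 and 0 in DNase. The highest MRL/lpr kidney had 2 counts, and the lowest control kidney had 205. The mean level was 7.70 ± 1.95 CPM (SD, n = 3) in Ctr. Summed over kidneys and scaled by library size, the level in Ctr was 273 times that in Lpr, with an exact 95% counting interval of 106 to 1005, which covers counting error only. The 1 count in the DNase group gave a ratio of 1166 with an interval of 209 to 46100, and both ratios rest on 4 counts or fewer in the MRL/lpr groups. Of all 25677 listed genes, 2 had at least 200 counts in every control kidney and at most 3 in every MRL/lpr kidney, Trim12a and the predicted gene Gm43305, a rule chosen after the values were seen.

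Gm15133, an antisense transcript that overlaps the 5′ end of Trim12a on the other strand, was singled out after its values were seen. It had 6, 5 and 9 counts in Ctr and 0 counts in each of the 8 MRL/lpr kidneys. Whether the libraries kept strand is not given in the sources used here, so reads from the stretch where both genes overlap cannot be told apart.

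Trim12c, the closest relative of Trim12a among the members, went the other way. Over the aligned coding sequence of the reference, 96.4% of bases were the same in Trim12a and Trim12c, where the longest Trim12a coding sequence had 891 bases and that of Trim12c 1491. The neighbour Trim5, which is no member, was closer still to Trim12a, with 97.1% of aligned bases the same. Trim5 was lower in MRL/lpr kidneys, as given below, and is not part of the pair sums and shares. Trim12c had 386, 255 and 351 counts in Ctr, 1281, 1418, 662 and 1041 in Lpr and 1146, 1042, 963 and 971 in DNase. Every MRL/lpr kidney lay above every control kidney. The mean level was 9.67 ± 1.33 CPM (SD, n = 3) in Ctr, 30.6 ± 7.86 in Lpr and 27.3 ± 3.403 in DNase (SD, n = 4 each). The log2 fold change was 1.67 (SE 0.255) in Lpr against Ctr, 1.83 without Lpr 3, and 1.50 (SE 0.138) in DNase against Ctr.

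Trim12a made up 38.9% to 48.6% of the counts of the pair in the control kidneys and 0% to 0.192% in the MRL/lpr kidneys. The highest upper limit of the exact 95% binomial interval in a MRL/lpr kidney was 0.691%. The sum of both genes was 17.4 ± 2.92 CPM in Ctr, 30.7 ± 7.87 in Lpr and 27.3 ± 3.396 in DNase, so the higher Trim12c count exceeded the missing Trim12a count in the group means. The lowest MRL/lpr sum, 19.9 CPM in Lpr 3, lay below the highest control sum of 20.5 CPM, whereas as FPKM it was 4.81 against at most 4.29 in Ctr.

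**Figure D1:**
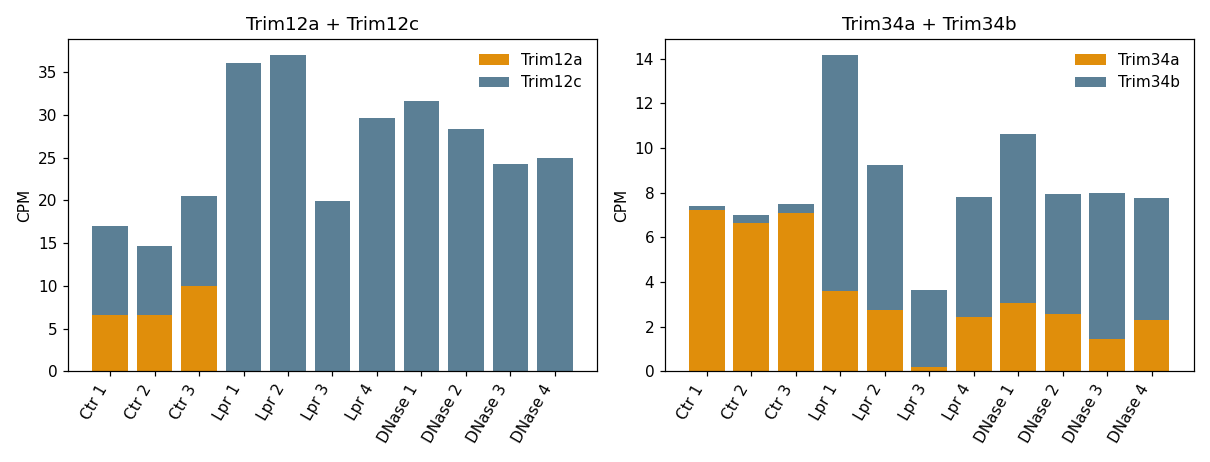
Stacked bars give the level in CPM of both copies of each pair in each of the 11 kidneys, with Trim12a and Trim12c on the left and Trim34a and Trim34b on the right. The copy drawn in orange, Trim12a or Trim34a, makes up 38.9% to 48.6% and 94.4% to 97.5% of the bar in control kidneys and at most 0.192% and 32.1% in MRL/lpr kidneys.

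Trim34a was lower in MRL/lpr kidneys, and its neighbouring copy Trim34b was higher. Trim34a had 269, 208 and 236 counts in Ctr, 128, 106, 6 and 85 in Lpr and 111, 94, 57 and 89 in DNase. All 8 MRL/lpr kidneys lay below the controls, and Lpr 3 was far below the others with 6 counts. The mean level was 6.98 ± 0.301 CPM (SD, n = 3) in Ctr, 2.24 ± 1.46 in Lpr and 2.33 ± 0.682 in DNase (SD, n = 4 each). The log2 fold change was -1.63 (SE 0.678) in Lpr against Ctr, -1.25 without Lpr 3, and -1.58 (SE 0.238) in DNase against Ctr.

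Trim34b had 7, 12 and 14 counts in Ctr, 376, 249, 115 and 190 in Lpr and 274, 199, 261 and 213 in DNase. Every MRL/lpr kidney had over 100 counts and every control kidney under 20. The log2 fold change was 4.30 (SE 0.513) in Lpr against Ctr and 4.25 (SE 0.302) in DNase against Ctr. Trim34a made up 94.4% to 97.5% of the counts of the pair in Ctr, 17.9% to 32.1% in DNase and 4.96% to 30.9% in Lpr. As a share of FPKM, it made up 97.2% to 98.8% in Ctr, 31.3% to 49.6% in DNase and 9.81% to 48.3% in Lpr. The lowest share of counts was that of Lpr 3, with an exact 95% binomial interval of 1.84% to 10.5%. The sum of the pair was 7.31 ± 0.250 CPM in Ctr, 8.73 ± 4.35 in Lpr and 8.58 ± 1.36 in DNase. The sums of Ctr, from 7.02 to 7.49 CPM, and of Lpr, from 3.64 to 14.2, overlapped through Lpr 3 alone, at 3.64. Lpr 1, Lpr 2 and Lpr 4, at 14.2, 9.26 and 7.82 CPM, lay above Ctr, as did the 4 treated kidneys, from 7.77 CPM. The direction depends on the scale, since the tables use a length of 2686 bases for Trim34a and 5598 for Trim34b. As FPKM the sum was 2.66, 2.38 and 2.67 in Ctr and 2.595, 1.99, 1.77 and 1.85 in DNase, so that 3 of the 4 treated kidneys lay below every control. In Lpr 1, Lpr 2, Lpr 3 and Lpr 4 it was 3.199, 2.258, 0.632 and 1.922. On this scale Lpr 2 and Lpr 4 also lay below every control, and Lpr 1 alone lay above. The exons of Trim34b in GENCODE M21 cover 1850 bases and not 5598. FPKM with the shorter length was not computed, so the direction by FPKM holds for the deposited values alone.

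Part of the count of a gene can belong to a near-identical copy. In the reference transcripts, 39.0% of the 100-base windows of Trim34a also occurred in another gene, in Trim34b for 563 of 2681 windows and in an antisense transcript, Gm47248, for 482. Their coding sequences were the same at 98.8% of aligned bases. For Trim12a the share was 3.29%, for Trim12c 8.05%, for Trim30a 4.41% and for Trim30d 4.57%, while Trim30b and Trim30c shared no window. For the neighbour Trim5 it was 11.7%, with 258 windows shared with Trim12c and 120 with Trim12a, against 37 shared between Trim12a and Trim12c. How reads that match several places were counted is not given in the sources used here. The windows are those of the GENCODE M21 models, whose Trim34b is shorter than the length used for FPKM. Shares of windows on the gene models behind the counts were not computed. By the share of windows alone, the levels of Trim34a and Trim34b are the most uncertain of the set. Trim30d, which shared 176 windows with Trim30a, had 8 to 16 counts in DNase beside 555 to 694 for Trim30a. How many reads were shared between copies was not tested. The split within each pair holds for these counts alone. The reference is that of the control strain, and the sequence and gene copies of MRL/lpr mice were not examined. Whether reads of MRL/lpr kidneys were lost, or counted for another copy, through strain differences was not tested. Levels of the cluster genes in MRL/lpr kidneys, Trim12a, Trim12c, Trim34a and Trim34b among them, are thus counts against that reference.

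Trim30a, the best described member, was higher in both MRL/lpr groups. It had 259, 205 and 225 counts in Ctr, 909, 857, 463 and 587 in Lpr and 555, 694, 671 and 621 in DNase. The groups of MRL/lpr mice did not overlap with Ctr, and the 2 highest kidneys were Lpr 1 and Lpr 2. The mean level was 6.74 ± 0.203 CPM (SD, n = 3) in Ctr, 19.6 ± 5.29 in Lpr and 16.7 ± 1.54 in DNase (SD, n = 4 each). The log2 fold change was 1.55 (SE 0.246) in Lpr against Ctr, 1.68 without Lpr 3, and 1.31 (SE 0.116) in DNase against Ctr.

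Trim30d, whose coding sequence was the same as that of Trim30a at 90.2% of aligned bases, was not higher with it against Ctr. Lpr 1 and Lpr 2 were the 2 highest MRL/lpr kidneys for both genes. It had 53, 39 and 52 counts in Ctr, 73, 41, 9 and 14 in Lpr and 11, 11, 8 and 16 in DNase. The 4 treated kidneys lay below all controls, whereas Lpr held both the highest kidney, Lpr 1, and kidneys as low as the treated ones. The mean level was 1.41 ± 0.157 CPM (SD, n = 3) in Ctr, 0.948 ± 0.816 in Lpr and 0.304 ± 0.0861 in DNase (SD, n = 4 each). The log2 fold change was -0.56 (SE 0.637) in Lpr against Ctr, -1.26 without Lpr 1 and -0.26 without Lpr 3. In DNase against Ctr it was -2.20 (SE 0.316).

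Trim30c was at the edge of detection and Trim30b below it. Trim30c had 1, 1 and 2 counts in Ctr, 33, 13, 6 and 6 in Lpr and 1, 11, 4 and 10 in DNase. Lpr lay above Ctr in every kidney, and DNase overlapped with both. The summed Trim30c level in Lpr was 10.4 times that in Ctr, with a counting interval of 3.85 to 39.4. Of the 58 counts in Lpr, 33 came from Lpr 1. Trim30b had 1 count in Lpr 4, 1 count in DNase 2 and 0 in the other 9 kidneys, under the limit of 3 counts that a count of 0 allows, so no ratio is given.

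**Figure D2:**
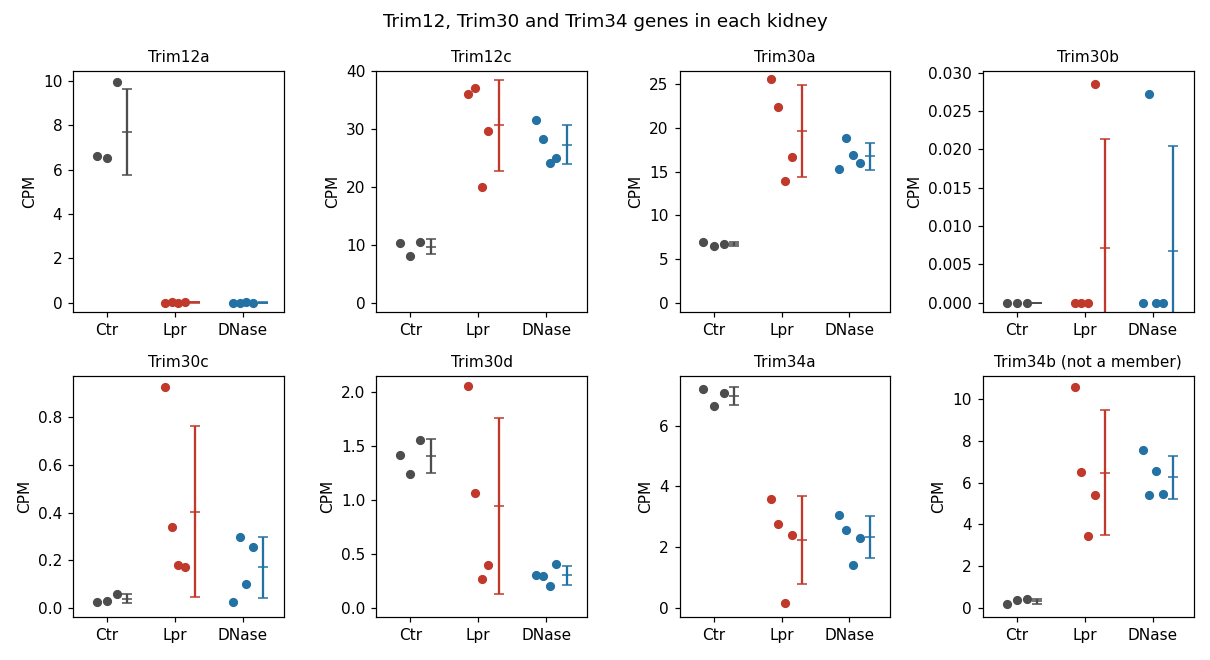
Each panel plots the level in CPM of 1 gene in every kidney, with control mice in grey, untreated MRL/lpr mice in red and DNase I-treated MRL/lpr mice in blue, and a bar beside the points for the mean and SD. The scales differ between panels, and Trim12a is near 0 in all 8 MRL/lpr kidneys while Trim12c, Trim30a and Trim34b are higher there than in every control.

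Levels of different genes were compared as FPKM, which divides by gene length. In Ctr the order was Trim34a at 2.51 ± 0.172 FPKM, Trim12c at 2.45 ± 0.397, Trim30a at 1.60 ± 0.0863, Trim12a at 1.21 ± 0.328 and Trim30d at 0.350 ± 0.0477 (SD, n = 3), followed by Trim30c at 0.00769 and Trim30b at 0. Across kidneys Trim34a and Trim12c overlapped in that order, and so did Trim30a and Trim12a. Within each control kidney Trim30a was above Trim12a, whereas the order of Trim34a and Trim12c differed between kidneys. In Lpr the order was Trim12c at 8.03 ± 2.31 FPKM, Trim30a at 4.83 ± 1.39, Trim34a at 0.845 ± 0.548, Trim30d at 0.244 ± 0.209 and Trim30c at 0.0807 ± 0.0710 (SD, n = 4). Trim30a and Trim34a did not overlap in Lpr, and the other neighbours in that order did. Within each Lpr kidney Trim12c was above Trim30a and Trim30d above Trim30c, and Trim34a was above Trim30d in all but Lpr 3. Trim12a and Trim30b came last in Lpr at 0.00454 and 0.00264 FPKM. In DNase the order of the first 5 was the same as in Lpr, with Trim12c at 7.38 ± 0.978 and Trim30a at 4.26 ± 0.415 FPKM, which did not overlap.

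Of the 5 members that passed the filter on low counts in Lpr against Ctr, 1 was called, Trim12a. The call rule asked for an adjusted p under 0.05 with a log2 fold change beyond 2 in size, and 5.78% of all 16074 genes tested met it. With no limit on the fold change 3 of the 5 passed, beside 10.2% of genes. Trim34a passed as well without Lpr 3, a fit for which the share of all genes was not counted. In Lpr against Ctr with every kidney, 4 of the 5 had groups that did not overlap, beside 25.6%. In DNase against Ctr 2 of 5 were called, Trim12a and Trim30d, beside 6.01% of 16100 genes. With no limit on the fold change 5 of 5 passed, beside 21.7%. Trim34a did not pass with all 3 groups in one fit, where the share of all genes was not counted. In DNase against Ctr 5 of 5 did not overlap, beside 31.9%. Both comparisons share the control kidneys, the choice of the cluster used them, and nothing is read from these counts. The median log2 fold change over all genes tested was 0.0272 in the first comparison and 0.00196 in the second.

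Along the cluster from Trim34a on, Trim34a, Trim5 and Trim12a come first and were lower in MRL/lpr kidneys. The next ones, Trim34b and Trim12c, were higher, as was Trim30a beyond Trim30b and Trim30c. Trim30d at the far end was below Ctr in the treated kidneys. Trim5, the mouse gene of that name, had 48, 22 and 61 counts in Ctr, 13, 3, 1 and 4 in Lpr and 5, 5, 4 and 5 in DNase, with a log2 fold change of -3.08 (SE 0.697) in Lpr against Ctr. Trim6, beyond Trim34a, had 10 to 20 counts in Ctr, 7 to 60 in Lpr and 13 to 26 in DNase, and the groups overlapped.

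**Figure D3:**
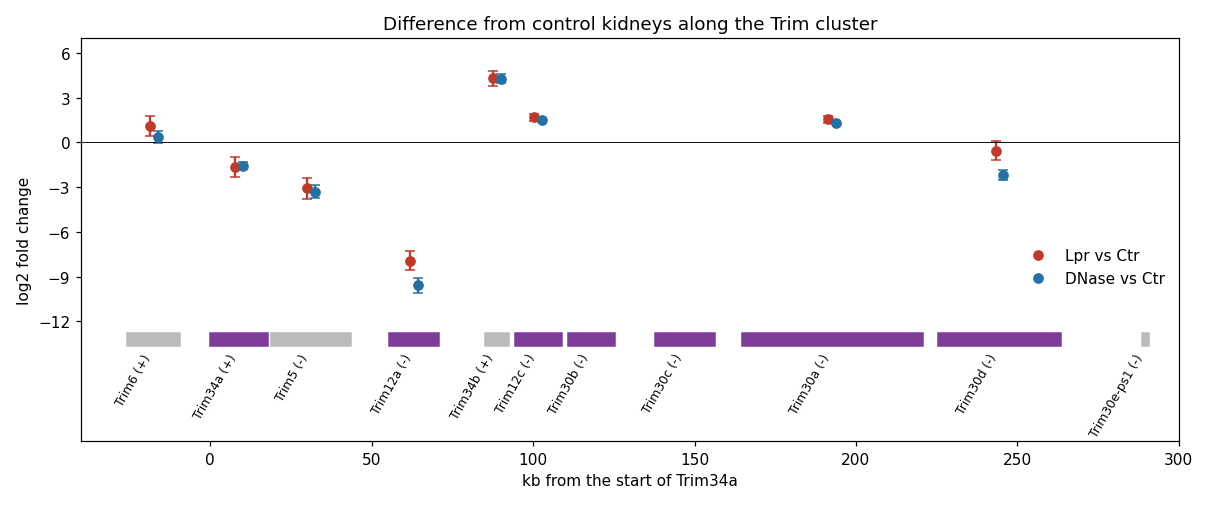
Log2 fold change against control kidneys, with its SE, is plotted at the middle of each gene against the distance in kb from the start of Trim34a, for untreated (red) and DNase I-treated (blue) MRL/lpr mice. Bars below show the extent of each gene, members in purple and other Trim genes in grey, with the strand in brackets. Trim34a, Trim5 and Trim12a are below 0 and Trim34b, Trim12c and Trim30a above it.

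DNase against Lpr asks whether treatment changed the members within MRL/lpr mice, and the choice of the cluster did not rest on it. Of the 4 members that passed the filter, 0 were called, beside 0% of the 15832 genes tested, by edgeR's quasi-likelihood test. At an unadjusted p under 0.05 there was 1 member, Trim30d, beside 5.6% of genes, and with DESeq2 0 members and 4 genes in all were called. None of the 4 members had groups that did not overlap, beside 3.79% of genes.

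Trim30d had the largest difference of the 4, a log2 fold change of -1.63 (SE 0.621, 95% interval -2.85 to -0.41). Its p was 0.0262 before adjustment and 0.850 after Benjamini-Hochberg adjustment over all genes in edgeR, so the difference did not pass. The fold change was -0.93 without Lpr 1, the kidney with 73 counts, and -1.94 without Lpr 3. For Trim30a the log2 fold change was -0.22 (SE 0.199, interval -0.61 to 0.17, adjusted p = 0.854 in edgeR), and for Trim12c it was -0.16 (SE 0.204, interval -0.56 to 0.24, adjusted p = 0.876 in edgeR). Without Lpr 3 it was -0.36 for Trim30a and -0.33 for Trim12c. For Trim34a the log2 fold change was 0.06 (SE 0.631, interval -1.17 to 1.30, adjusted p = 0.983 in edgeR), and it was -0.33 without Lpr 3. These intervals leave room for a change of Trim34a or Trim30d beyond a factor of 2 and bound the changes of Trim12c and Trim30a below that factor. Trim12a, Trim30b and Trim30c were below the filter, and the summed Trim30c level in Lpr was 2.38 times that in DNase with a counting interval of 1.47 to 3.94, which leaves out the spread between mice.

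**Figure D4:**
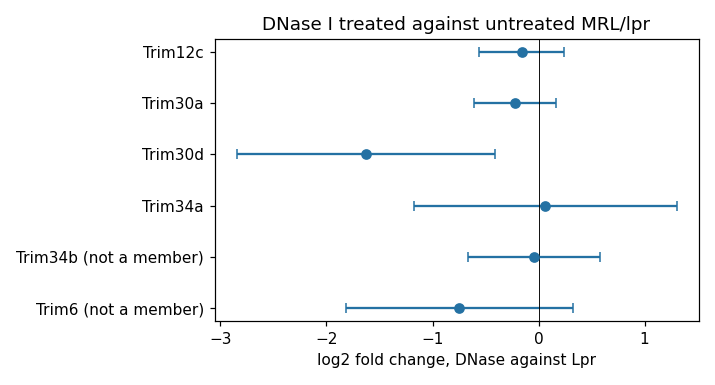
Points give the log2 fold change of DNase I-treated against untreated MRL/lpr kidneys (n = 4 each) and bars its 95% interval, not adjusted for the number of genes, for the 4 members tested and 2 neighbours. The interval of Trim30d, from -2.85 to -0.41, is the only one of the 6 that leaves out 0, and its adjusted p was 0.850.

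The interferon-induced genes, of which 36 of the 38 chosen were listed and tested, gave the setting in which the members were measured. In Lpr against Ctr 23 of 36 passed the test upwards and 0 downwards, with a median log2 fold change of 1.47, beside 7.27% of all genes upwards and 2.92% downwards. The leading genes were Ifi44l at 4.80 (SE 0.478) and Zbp1, a sensor of Z-form nucleic acid, at 3.08 (SE 0.371). In DNase against Ctr 26 passed upwards and 2 downwards with a median of 0.785, beside 13.1% of genes upwards and 8.61% downwards. In DNase against Lpr 34 of 36 had a lower value and 0 passed, with a median of -0.611 beside -0.0202 over all genes. Isg15, a ubiquitin-like modifier, had a log2 fold change of -0.99 (SE 0.275, adjusted p = 0.820 in edgeR) in that comparison.

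The mean log2 CPM of the list was 3.01 to 3.204 in Ctr, 3.84 to 3.92 in DNase and 3.85, 4.12, 4.79 and 4.96 in Lpr 3, Lpr 4, Lpr 2 and Lpr 1. Lpr 1 and Lpr 2 were also the 2 highest of the 8 MRL/lpr kidneys for Trim12c, Trim30a, Trim30c and Trim30d. They form a cluster of their own on the list, so no correlation over all 8 kidneys is given. Over the other 6 kidneys Pearson's r with the list was 0.475 for Trim12c, 0.365 for Trim30a, 0.325 for Trim30d and 0.327 for Trim34a, and none passed an exact permutation test, two-sided, with p between 0.314 and 0.617 and an adjusted p of 0.771 for each over 5 relations. Spearman's rho over these kidneys was 0.429, 0.657, -0.143 and 0.371, with an adjusted p of 0.803 by exact permutation for each. Without these 2 kidneys a relation was not established in these data, and 6 kidneys give little room to detect it.

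**Figure D5:**
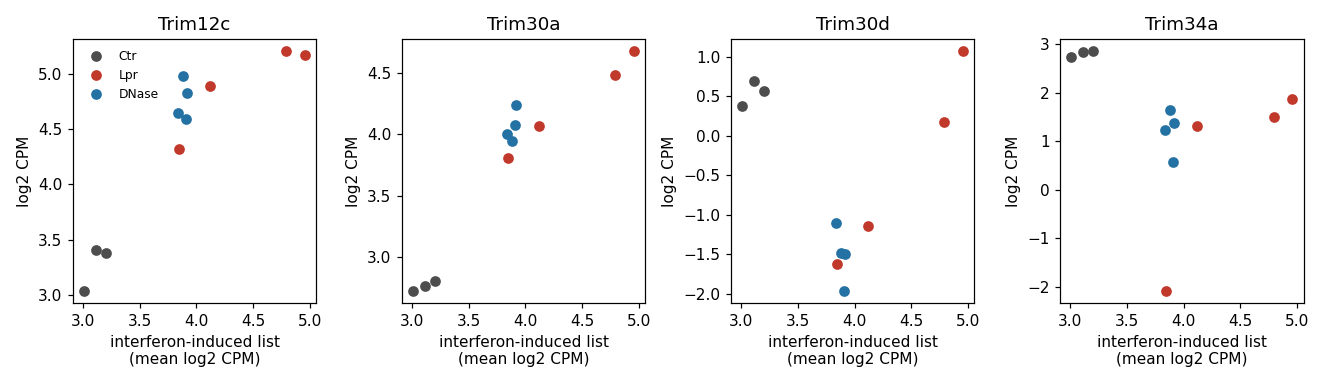
The level of 4 members (log2 CPM, vertical axis) is plotted against the mean log2 CPM of 36 interferon-induced genes (horizontal axis) for each of the 11 kidneys, coloured by group. The 2 red points on the right, at 4.79 and 4.96, are Lpr 2 and Lpr 1, and the lone low point of Trim34a is Lpr 3.

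Summed leukocyte markers moved with Trim12c, Trim30a and Trim34b between Ctr and the MRL/lpr groups, with 17 of 19 markers passing upwards in Lpr against Ctr (median log2 fold change 3.11) and 19 of 20 in DNase against Ctr (median 3.02). Within the 8 MRL/lpr kidneys, Pearson's r of the mean log2 level of leukocyte markers was 0.361 with Trim30a, 0.0232 with Trim12c, 0.0259 with Trim30d and 0.128 with Trim34a. Spearman's rho was 0.619, 0.00, -0.0476 and -0.143. Exact permutation tests gave an adjusted p between 0.620 and 0.974 for r and between 0.287 and 1.0 for rho over 10 relations. Without DNase 1 and DNase 3, the 2 kidneys farthest from the median, r lay between 0.157 and 0.471. Without Lpr 3 r was 0.253 with Trim30a, -0.269 with Trim12c, -0.0595 with Trim30d and -0.583 with Trim34a, so the sign for the last 3 rests on that library. The part of leukocytes in the members' levels was not tested. Kidney markers gave 0 of 18 passing in either direction in Lpr against Ctr (median -0.376), and 1 upwards and 2 downwards in DNase against Ctr (median -0.295). In DNase against Lpr 0 of 20 leukocyte markers (median -0.0397) and 0 of 18 kidney markers (median 0.174) passed.

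Among 18 genes of interferon ligands, receptors and signalling, 6 passed upwards in Lpr against Ctr (median log2 fold change 0.623) and 12 in DNase against Ctr (median 0.380), with 0 downwards in both. Ifng, the type II interferon, had a log2 fold change of 4.09 (SE 0.614) and Socs1, an inhibitor of cytokine signalling, of 3.03 (SE 0.461) in Lpr against Ctr. The mean level of Ifng was 0.884 CPM in Lpr and 0.047 in Ctr, where 3 counts make 0.0805 to 0.0957 CPM. Its fold change therefore rests on a control level near the floor. The hand-written list of retrovirus restriction genes was broad and also held Cgas, Setdb1, Slfn1 and Slfn2. Of its 24 genes tested, 7 passed upwards and 0 downwards in Lpr against Ctr (median 0.526), and 11 and 1 in DNase against Ctr (median 0.324). They included Bst2, which tethers budding virus to the cell, at 2.83 (SE 0.306) in Lpr against Ctr. Of both lists, 0 genes passed in DNase against Lpr, with medians of -0.212 and -0.242.

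Among 9 described targets and partners of Trim30a, 3 passed upwards and 0 downwards in both comparisons with Ctr. These were Sting1, the adaptor of cytosolic DNA sensing, at 2.05 (SE 0.252), and the inflammasome genes Casp1 at 2.76 (SE 0.378) and Nlrp3 at 2.74 (SE 0.415) in Lpr against Ctr. The medians of the 9 genes were 0.152 in Lpr against Ctr, 0.121 in DNase against Ctr and -0.0226 in DNase against Lpr, where 0 passed. Of the Trim genes outside the set, 4 of 41 passed upwards and 1 downwards in Lpr against Ctr (median 0.140), beside 7.27% and 2.92% of all genes. In DNase against Ctr 6 and 3 of 40 passed (median 0.156), beside 13.1% and 8.61%. In DNase against Lpr 0 of 39 passed (median -0.00934). Trim34b led those that rose, followed by Trim59 at 1.85 (SE 0.308) and Trim14 at 1.39 (SE 0.300), and Trim5 was the one that fell in Lpr against Ctr. That call was lost in edgeR without Ctr 1, Ctr 3, Lpr 2 or Lpr 4, with an adjusted p between 0.0633 and 0.106, and with limma on log2(FPKM + 1), with an adjusted p of 0.134.

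The 5 genes whose log2 CPM over the 11 kidneys was most like that of Trim12a, by Pearson's r among 14632 genes compared, were Rnps1 (0.989), Tmem61 (0.986), B3gnt3 (0.985), Cpn1 (0.985) and Gdpd3 (0.984). Of these, Tmem61 was also close to absent from MRL/lpr kidneys, at 0.0257 to 0.151 CPM against 3.75 to 4.78 in Ctr, and Rnps1 was not, at 13.4 to 18.2 CPM against 36.6 to 42.5. The 4 most like Trim30a were Zmynd15 (0.992), Irgm1 (0.991), Plbd1 (0.990) and Tapbpl (0.989). Irgm1, an interferon-inducible GTPase, ranged from 50.3 to 68.8 CPM in Ctr and from 234 to 715 in MRL/lpr kidneys. These 11 kidneys fall into separate groups by strain, which the correlations share, and they are descriptions.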

How the data were processed

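Each of the 11 mice gave 1 library of paired 100 bp reads. The authors deposited unnormalized whole-number counts per gene symbol. The study's methods name HTSeq for aligning reads with reference genes. HTSeq, fastp and the mm10 build are named in the submitters' processing notes, while a genome aligner, the annotation, strand setting and treatment of multiple matches are not given in the sources used here. The deposited FPKM came from the same counts, and were used for levels between genes and as an alternative. All sample columns were used.

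Groups were compared in pairs with edgeR 4.0.16 (quasi-likelihood test, filterByExpr, TMM, Benjamini-Hochberg over all genes tested) in R 4.3.3, and calls needed an adjusted p under 0.05 with a log2 fold change beyond 2 in size. DESeq2 1.42.0 and limma 3.58.1 were alternatives. CPM used TMM-scaled library sizes over the 11 libraries, and log2 CPM a prior count of 2. Intervals of log2 fold changes are 95% intervals from the normal distribution, and those of shares and count ratios are exact binomial ones. Python 3.11.15, scipy 1.17.1 and Biopython 1.88 gave the permutation tests and alignments. On simulated data, 177, 189 and 193 of 200 genes changed by a log2 fold change of 3 were recovered with 7, 1 and 1 false calls in Lpr against Ctr, DNase against Ctr and DNase against Lpr, over 16074, 16100 and 15832 genes. Libraries held 33469858 to 38460873 counts, and replicates of a group spread more than counting alone gives (chi-square per degree of freedom 16.5 to 366). Nothing in the sources used here says more about the replicates than that each is a mouse.

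The members, gene lists and tests were chosen with earlier results of these data known. Genes named are the members, neighbours that passed the filter, and, from up to 4 genes of smallest p per list and comparison, a selection, and the 5 genes most like Trim12a and Trim30a; predicted genes were left out of the last 2 kinds. Lists were written by hand from known functions. Coordinates and coding sequences are from GENCODE M21, and promoters from RefSeq GRCm38.p6. Protein identity between members was not analysed here, and identity of the longest coding sequences is given instead. Results of 1 named item are not reported here.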

Additional observations from a re-analysis of the deposited data

Results flagged for a closer look

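One value stood apart from its group. The summed level of Trim34a and Trim34b was 10.6 CPM in DNase 1 and between 7.77 and 7.98 CPM in the other 3 treated kidneys, a gap above the 95% critical value of Dixon's test for 4 samples. Trim34a was 3.06 CPM and Trim34b 7.56 CPM in that kidney, each the highest of the treated group. As FPKM the sum was 2.595 in DNase 1 and 1.99, 1.77 and 1.85 in the other 3 treated kidneys. Dixon's test was applied to CPM and to shares of counts and not to FPKM, so the flag holds for the CPM scale alone. Chance gives about 1 such value in 20 groups, and 22 sets of 4 kidneys were examined, 16 for single genes and 6 for the sums and shares of the pairs. The single genes gave 0 such values. The cause was not tested.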

How the results depend on the processing

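The number of members called in Lpr against Ctr was 2 with no filter on low counts, beside 1043 of 24832 genes. It was also 2 with all 3 groups in one fit, beside 1069 of 16500 genes. The member added in both was Trim30c, with 1, 1 and 2 counts in Ctr. With limma on log2(FPKM + 1) the number was 0, beside 211 of 16171 genes. With no threshold on the fold change it was 3, beside 1639 of 16074. In DNase against Ctr it was 0 with limma on log2(FPKM + 1), beside 190 of 16108 genes. With log2(FPKM + 0.1) it was 1, beside 659 of 16108, and with no threshold 5, beside 3493 of 16100. In DNase against Lpr 4 of 15832 genes were called with DESeq2. A pseudocount shrinks the fold change of low genes by construction, and the cause of the other changes was not tested. In DNase against Lpr, Trim34b, at -0.05, turned to 0.027 with log2(FPKM + 1), 0.088 with log2(FPKM + 0.1) and 0.046 with the replicate block, and lay between -0.26 and 0.30 with each kidney left out. Trim34a lay between -0.33 without Lpr 3 and 0.39 without Lpr 1. The genes most like Trim12a and Trim30a shared 0 of 5 by Spearman's rho, and those of Trim30a shared 2 of 5 within the 8 MRL/lpr kidneys. With a motif longer by the bases CT, 3 members held it, beside 0.271% of promoters. Same-numbered kidneys did not pair (r between -0.277 and 0.159). With the number as a replicate block, 870 of 15855, 839 of 15950 and 0 of 15832 genes and 1, 2 and 0 members were called. With each kidney left out, the genes called were 663 to 969 in Lpr against Ctr and 869 to 1042 in DNase against Ctr. The depth limits Trim30b, Trim30c and the MRL/lpr level of Trim12a.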
